A study of Mus musculus with 26 samples.

Results

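Chromatin sites pulled down with oligos against the long non-coding RNA (lncRNA) MaTAR25 were compared between mouse mammary tumor cells of 2 kinds, 4T1 and NDL. All autosomal peaks of the total-pool list of each cell type were used, which gave 74785 peaks in 4T1 cells and 67159 in NDL cells, 141944 of the 273053 peaks in the 4 deposited lists of the series. A peak was called shared when it overlapped a peak of the other list by at least 1 bp, 4T1-only when a 4T1 peak overlapped no NDL peak, and NDL-only in the opposite case. 4T1 is a mammary tumor cell line of the BALB/c strain, labelled wild type. The NDL samples are labelled primary NDL cells from mammary tumor tissue of the FVB strain with the genotype MMTV-PyMT, while the study's text calls them MMTV-Neu-NDL, a model in which the MMTV promoter drives an activated Neu (Erbb2) receptor in mammary epithelium. The study's methods also list a cultured MMTV-Neu-NDL line, called cNeu, and its supplement names cNeu as the cells of its second ChIRP-seq list. A supplementary legend speaks of MMTV-NDL cells instead. Neither the genotype nor whether the cells were primary or of that line could be settled from these sources. Each cell type had 2 libraries with all 14 MaTAR25 oligos and 1 control library with oligos against Ppib (cyclophilin B) RNA, each from 20000000 glutaraldehyde-fixed cells. Cell type, mouse strain, labelled genotype and the libraries, with a separate Ppib control for each list, change together between the lists and cannot be told apart.

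In ChIRP (chromatin isolation by RNA purification), fixed chromatin is sheared, biotin-labelled antisense oligos capture an RNA, and the DNA that comes down with it is sequenced. The method is used to ask where a nuclear lncRNA sits on chromatin, and oligos are commonly split into odd and even pools so that sites can be compared between sets of oligos that share no sequence. MaTAR25 was first annotated as 1200007C13Rik and is a nuclear lncRNA expressed in mammary tumors. The study linked it to Tns1, which encodes tensin 1, a protein of the focal adhesions that connect actin filaments to integrins. The comparison of 4T1 with NDL cells asks whether the same sites are recovered in a second mammary tumor model.

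Several sites carry the comparison, and their sequences in GRCm38 are given around the longest exact match to a MaTAR25 oligo. Capitals mark the match, the 20 bases on either side are in lower case, and each window is written 5′ to 3′ on the strand that reads as the oligo does. The highest-scoring peak of both lists lay over exon 2 of MaTAR25 on chromosome 2, and its window (chr2:167829368-167829427, plus strand) holds all 20 bases of oligo 3. The second-ranked peak of both lists lay in an intron of Tns1 (chr1:74048514-74048569, plus strand), with 16 bases of oligo 4. Its window ends in the bases that open the Tns1 target sequence printed by the study, which places that target in the promoter of isoform 3. The window of the fourth-ranked 4T1 peak, shared and in an intron, with the promoter of Gm37758 the nearest, is chr9:33227513-33227570 on the minus strand, with 18 bases of oligo 12.
MaTAR25 exon 2: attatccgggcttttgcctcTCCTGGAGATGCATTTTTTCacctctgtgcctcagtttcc
Tns1 intron: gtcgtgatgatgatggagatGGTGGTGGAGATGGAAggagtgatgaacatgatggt
nearest Gm37758: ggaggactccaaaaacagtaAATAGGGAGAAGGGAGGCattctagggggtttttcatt

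Sites of 1 list alone can hold matches as long as that of the shared Tns1 site. The highest-scoring 4T1-only peak lay in an intron whose nearest promoter is that of Gm25628 (chr15:64040298-64040351, minus strand, 14 bases of oligo 7). A 4T1-only peak in an intron of Ilvbl (chr10:78578577-78578632, plus strand) holds the same 16 bases of oligo 4 as the Tns1 site. The highest-scoring 4T1-only promoter peak was that of Cd200r2 (chr16:44866575-44866630, plus strand, 16 bases of oligo 6). Among NDL-only peaks, the promoter peaks of Kmt2b (chr7:30585519-30585574, plus strand) and Fbxl2 (chr9:113991429-113991482, minus strand) hold 16 and 14 bases of oligo 4.
Gm25628, 4T1-only: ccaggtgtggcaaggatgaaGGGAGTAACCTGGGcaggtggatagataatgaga
Ilvbl, 4T1-only: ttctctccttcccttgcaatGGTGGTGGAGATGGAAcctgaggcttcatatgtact
Cd200r2, 4T1-only: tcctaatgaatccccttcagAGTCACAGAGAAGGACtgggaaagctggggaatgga
Kmt2b, NDL-only: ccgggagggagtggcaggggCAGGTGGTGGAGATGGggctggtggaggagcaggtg
Fbxl2, NDL-only: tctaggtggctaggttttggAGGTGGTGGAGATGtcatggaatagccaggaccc

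The oligos these sites match are printed with the same convention, capitals marking the bases found at the site named beside each.
Oligo 4 at Tns1 and Ilvbl: caGGTGGTGGAGATGGAAtg
Oligo 4 at Kmt2b: CAGGTGGTGGAGATGGaatg
Oligo 4 at Fbxl2: cAGGTGGTGGAGATGgaatg
Oligo 12 at the site nearest Gm37758: AATAGGGAGAAGGGAGGCtc
Oligo 7 at Gm25628: ttGGGAGTAACCTGGGgaag
Oligo 6 at Cd200r2: AGTCACAGAGAAGGACggcg

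Most peaks were shared. Of the 4T1 peaks, 49336 of 74785 overlapped an NDL peak (66.0%, 95% Wilson interval 65.6 to 66.3), and of the NDL peaks, 49281 of 67159 overlapped a 4T1 peak (73.4%, interval 73.0 to 73.7). This left 25449 4T1-only and 17878 NDL-only peaks. After overlapping peaks were merged, 49255 of 92582 sites (53.2%) held peaks of both lists. Intervals for shares cover counting error over peaks only: each list gives 1 set of peaks and 1 score per peak over the 2 libraries of a cell type, so the lists allow no replicate check and no p-value is given. Peaks absent from a list are those that the authors' peak calling, with its 50-fold limit over the Ppib control, did not return there. Absence alone does not show enrichment below that limit, and the depth of the libraries is unknown from the lists.

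Overlap was close to complete where it occurred. Of the 49362 overlapping pairs, 49150 joined 1 peak to 1 peak, the median overlap was 500 bp, and the centres lay a median of 30.5 bp apart (90th percentile 108 bp). Shared 4T1 peaks were 500 bp long in the median and shared NDL peaks 625 bp, and the median of both other classes was 500 bp. Of the 4T1-only peaks, 60 (0.236%) had an NDL peak within 500 bp, and of the NDL-only peaks 54 (0.302%) had a 4T1 peak as near. The median distance from a 4T1-only peak to the nearest NDL peak was 11.3 kb, and 10.2 kb in the other direction. As a background, NDL peaks were laid on the same coordinates of each other autosome, where 1.28 to 5.20% of a chromosome's peaks met a 4T1 peak, against 69.4 to 77.1% on their own chromosome. Peaks laid beyond the end of a shorter chromosome were counted and could meet no peak, which lowers this background. Peaks covered 1.85% of the autosomal sequence in 4T1 cells and 1.76% in NDL cells.

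The share of shared peaks fell with peak score. In the 4T1 list it was 86.3% (interval 85.5 to 87.1) in the decile with the highest scores, 74.1% in the fifth decile and 34.4% (33.4 to 35.5) in the last. In the NDL list the same deciles gave 92.7% (92.0 to 93.3), 82.8% and 38.4% (37.2 to 39.5). The median score of shared peaks was 53 in the 4T1 list, against 27.9 for 4T1-only peaks. Within the NDL list these medians were 48.6 and 23.3. The score is the authors' HOMER value and its scale was not set to be equal between lists, so scores were ranked within a list.

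**Figure D1:**
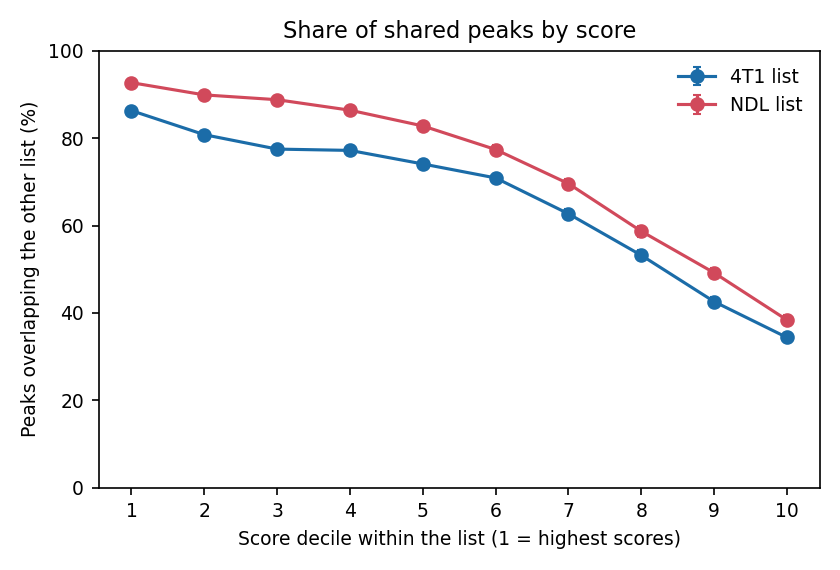
Share of peaks that overlap the other list (y axis, percent) in each score decile of the 4T1 and NDL lists (x axis, decile 1 has the highest scores), with 95% Wilson intervals. Both curves fall from decile 1 (86.3% in 4T1, 92.7% in NDL) to decile 10 (34.4% and 38.4%), and the NDL curve lies above the 4T1 curve in every decile.

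Shared peaks kept much of their order. Over the one-to-one pairs, Spearman's rho between the 4T1 and the NDL score was 0.868, given as a description over sites that share oligos and sequence. Of the 100 highest-scoring peaks of each list, 38 pairs stood among the top 100 of both, and 700 pairs among the top 1000 of both. Of the top 100, 90 of the 4T1 peaks and 96 of the NDL peaks were shared, and of the top 1000, 924 and 964.

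**Figure D2:**
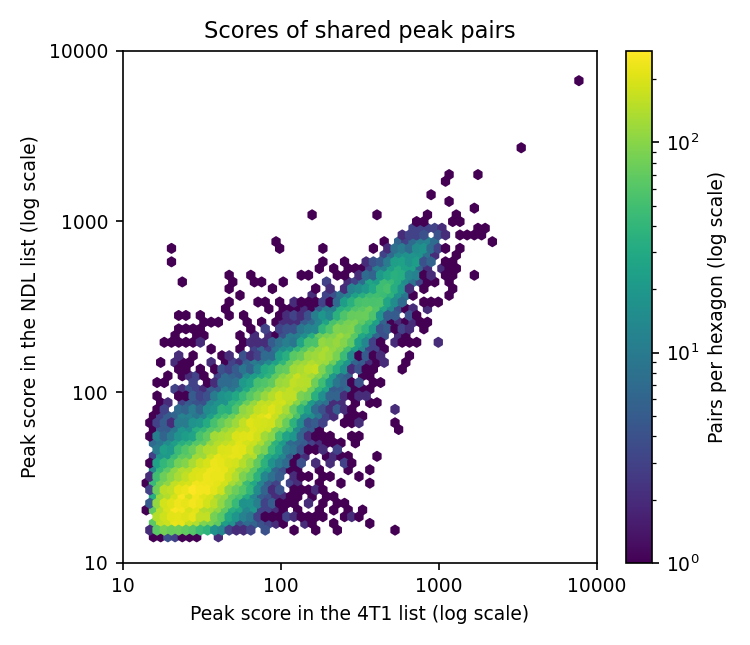
Peak scores of the 49150 one-to-one shared pairs in the 4T1 list (x axis) and the NDL list (y axis), both on log scales, with hexagons shaded by the number of pairs. The cloud runs along the diagonal with rho 0.868, and the 2 isolated hexagons at the upper right are the MaTAR25 and Tns1 peaks.

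The MaTAR25 locus came first in both lists. The exon 2 peak, from 167827384 to 167829742 on chromosome 2 in the 4T1 list, had a score of 7720.7, and its NDL counterpart had 6677.5. These scores stood far above the second peak of each list. All 14 oligos had 1 full-length site of 20 bases on the autosomes each, and all 14 sites lay inside peaks of both lists. By nearest promoter, 4 4T1 peaks and 4 NDL peaks belonged to 1200007C13Rik, and all were shared. In RNA-seq of 4T1 control cells the gene had 0.811 and 0.962 CPM (read counts scaled to a common library total) in the 2 libraries. RNA of NDL cells was not analysed here.

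Tns1 was the second site in both cell types. The 4T1 peak spanned 74048222 to 74049127 on chromosome 1 with a score of 3162.0, and the NDL peak spanned 74048385 to 74049134 with a score of 2739.9. Of the peaks whose nearest promoter was that of Tns1, 14 of 16 in the 4T1 list and 14 of 17 in the NDL list were shared. Tns1 had 7.18 and 2.28 CPM in the 4T1 control libraries.

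Shared sites were ordered by the worse of their 2 ranks, so a high rank in 1 list alone does not place a site among the first 10. After MaTAR25 and Tns1 the order held a promoter peak of Gm7281 (rank 6 in 4T1, 3 in NDL), intergenic peaks near Gm16237 (rank 9 in both), Platr1 (15 in both), Gm48410 (18 and 14) and Gm18262 (27 and 4), an intronic peak of Ankar (20 and 13) and an intronic peak with the promoter of Gm37758 the nearest (4 and 25). A peak in an intron of Gpr39, which encodes a zinc-sensing G protein-coupled receptor, ranked 24 and 8. All 10 of the highest shared sites were also in both the odd-pool and the even-pool list of 4T1 cells, and 8 of them held an exact oligo match of at least 14 bases.

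Some of the strongest peaks were in 1 list alone. The 10 highest-scoring 4T1-only peaks ranked 11 to 90 in the 4T1 list. Their nearest genes were Gm25628, Gm45805, Slc12a3, Ilvbl, Eri1, Mroh2a, Bsx, Gm24696, Zfp469 and Gm29678. Slc12a3 encodes the thiazide-sensitive sodium chloride cotransporter, Eri1 an RNA exonuclease and Bsx a homeobox transcription factor. The Ilvbl peak had rank 33 with a score of 1108.7, and the Slc12a3 peak had rank 29 with 1169.1. Of these 10 peaks, 8 were also in both the odd and the even list of 4T1 cells, and the other two were in 1 of them.

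The 10 highest-scoring NDL-only peaks stood at ranks 6, 17, 27, 72 and then 220 to 435 in the NDL list, and lay near 5031415H12Rik, 1700001N15Rik, Cdc26, Gm12026, Gm37091, 4930413F20Rik, Tdp1, Fbxl2, Mir674 and Atp11b. Cdc26 encodes a subunit of the anaphase-promoting complex, Tdp1 a DNA repair enzyme and Atp11b a phospholipid-transporting ATPase. The Cdc26 promoter peak, from 62407310 to 62408344 on chromosome 4, scored 911.5. Of these 10 peaks, 6 were in neither the odd nor the even list of 4T1 cells, 3 were in 1 of the 2 and 1 was in both. Of the 10, 3 lay on chromosome 2 or 3, where the labels of the even list are in doubt.

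Exact matches to the MaTAR25 oligos were most common in shared peaks. Matches of at least 12 bases, on either strand, lay in 26.7% of shared 4T1 peaks (interval 26.3 to 27.1), 18.9% of 4T1-only peaks (18.4 to 19.4) and 14.7% of NDL-only peaks (14.1 to 15.2). For matches of at least 14 bases the shares were 4.91%, 1.86% and 1.12%. Matches to the Ppib control oligos, counted in the same way at 12 bases, ran in the opposite order and were rare, with 0.249%, 0.444% and 0.531%. Peaks were called over the Ppib pulldown, which selects against sites captured by Ppib oligos. The Ppib shares are therefore not an independent control. The longest match lay a median of 70 bp from the centre of shared 4T1 peaks, 73 bp in 4T1-only and 70 bp in NDL-only peaks. Score moved with the match: the median score of 4T1 peaks was 34.9 with no match of 10 bases and 565 with a match of 16 or more.

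The longer the match, the more often a peak was shared. In the 4T1 list the share rose from 62.1% of peaks with no match of 10 bases to 67.7% at 12 bases, 82.1% at 14 and 89.2% (166 of 186, interval 84.0 to 92.9) at 16 or more. In the NDL list it rose from 67.4% to 78.6%, 91.2% and 97.6% (165 of 169, interval 94.1 to 99.1). Within score deciles, peaks with a match of 12 or more bases were set against all others, a contrast unlike the one above. In the highest 4T1 decile, 86.9% of peaks with a match of 12 bases and 85.6% of peaks without were shared, with overlapping intervals, and in the lowest decile 37.4% and 34.0%, also overlapping. The intervals did not overlap in the second decile, with 83.0% (81.5 to 84.4) and 79.6% (78.5 to 80.7), or in the fourth, with 79.6% (77.7 to 81.5) and 76.4% (75.3 to 77.5). In the NDL list the highest decile gave 93.9% and 91.4%, and the lowest 48.6% (45.2 to 52.0) and 36.9% (35.7 to 38.2).

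Seen from the genome, long matches were mostly inside peaks of both cell types. The autosomes held 214 sites with at least 16 matching bases. Of these, 179 (83.6%) lay in peaks of both lists, 20 in a 4T1 peak alone, 4 in an NDL peak alone and 11 in no peak. At 14 bases 62.8% of 2828 sites were in both lists and 16.9% in neither. At 12 bases 15.5% of 43461 sites were in both and 72.4% in neither. For the Ppib oligos, 107 of 26372 sites of 12 bases (0.406%) lay in peaks of both lists, and 0 of 90 sites of 16 or more bases lay in a peak. These Ppib values were in part set in advance, because peaks were called over the Ppib pulldown.

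**Figure D3:**
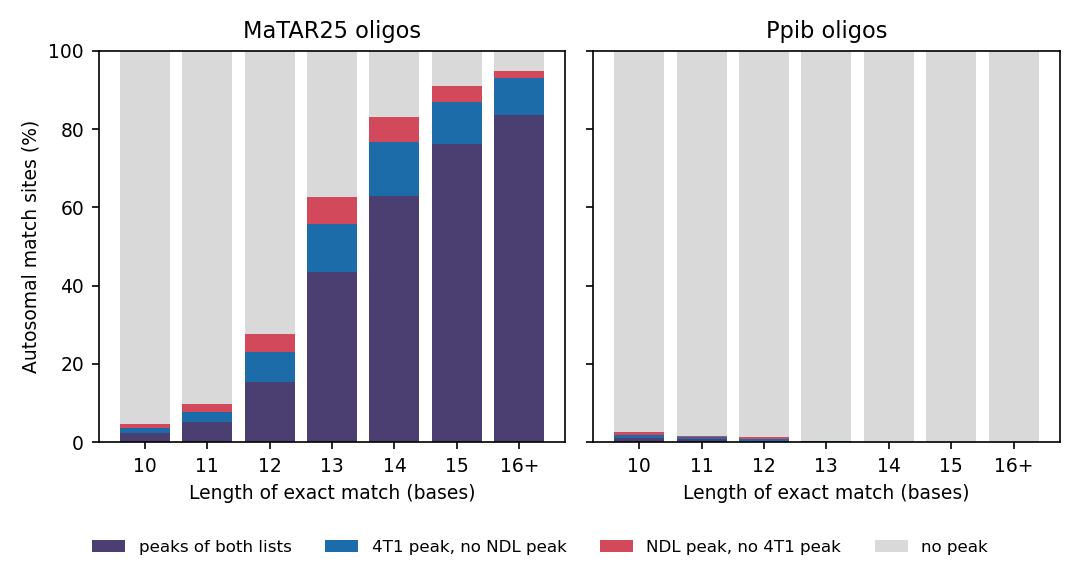
Autosomal sites with an exact match to a MaTAR25 oligo (left) or a Ppib control oligo (right), by length of the match (x axis, bases), as the percentage that lay in peaks of both lists, in a 4T1 peak alone, in an NDL peak alone or in no peak (y axis). For MaTAR25 oligos the share in both lists rises from 2.30% at 10 bases to 83.6% at 16 or more, and for Ppib oligos it falls from 1.17% at 10 bases to 0. The fall for Ppib oligos was in part set by calling peaks over the Ppib pulldown.

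The oligos differed in how many sites they contributed. Oligo 12 of the even pool matched 7.71% of shared 4T1 peaks, 4.42% of 4T1-only peaks and 4.13% of NDL-only peaks. Oligo 4, also of the even pool, matched 4.54%, 2.31% and 1.84%. Oligo 1 matched the fewest, with 0.266%, 0.318% and 0.213%, and its intervals overlap between the 3 classes. The oligos also differed in how common their matches were on the autosomes. Oligo 12 had 11243 such sites, oligo 4 had 5000 and oligo 1 had 1972. Of these sites, 38.5%, 45.5% and 6.64% lay in peaks of both lists. Among 4T1 peaks with a match of 12 bases, the shared part ran from 61.8% for oligo 1 to 79.2% for oligo 4, and among NDL peaks from 75% for oligo 10 to 87.2% for oligo 4. Peaks that match oligo 4 also had the highest median score of any oligo in both lists, 110 in 4T1 and 98.8 in NDL.

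The odd-pool and even-pool lists of 4T1 cells were not used to class the peaks. Of the shared 4T1 peaks, 87.4% (interval 87.1 to 87.7) were in the odd or the even list, against 71.8% (71.2 to 72.3) of 4T1-only peaks and 35.1% (34.4 to 35.8) of NDL-only peaks. Both lists held 20.3%, 9.53% and 1.42%. The even list has 8877 peaks labelled chromosome 2 and 0 labelled chromosome 3, and without these chromosomes the shares in either list were 90.4%, 74.4% and 35.9%. The 4T1 lists share a cell line and a Ppib control, and NDL cells were not pulled down with the separate pools.

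NDL-only peaks are by definition absent from the 4T1 total list, which shares its cells and control with the odd and even lists, so their lower recovery is in part set by that choice. In the highest score decile, without chromosomes 2 and 3, 98.0% of shared 4T1 peaks and 94.8% of 4T1-only peaks were in the odd or even list, against 41.4% (177 of 428, interval 36.8 to 46.1) of NDL-only peaks. In the fourth decile the shares were 94.2%, 88.6% and 25.1%. In the lowest decile they were 72.9%, 56.5% and 35.8%. Recovery thus fell with score in both 4T1 classes, while NDL-only peaks stayed between 25.1% and 41.4%.

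**Figure D4:**
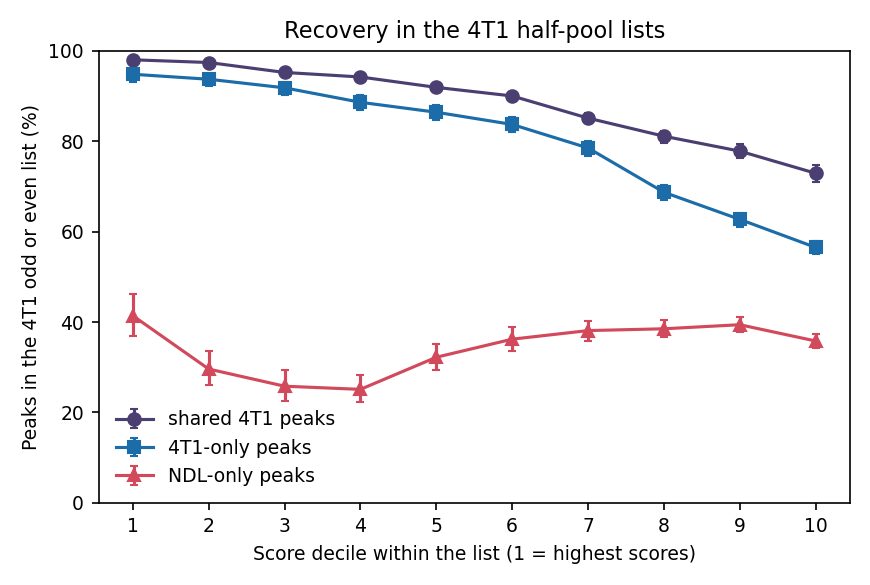
Percentage of shared 4T1, 4T1-only and NDL-only peaks found in the odd-pool or even-pool list of 4T1 cells (y axis), by score decile within the list of origin (x axis, 1 is highest), without chromosomes 2 and 3 and with 95% Wilson intervals. The 4T1-only peaks run from 94.8% to 56.5%, below the shared peaks in every decile, and the NDL-only peaks stay between 25.1% and 41.4%.

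The odd and even lists differed by the pool of the matching oligo. Of shared 4T1 peaks whose matches of 14 or more bases came from odd-pool oligos alone, 99.4% (709 of 713) were in the odd list and 33.8% in the even list. For even-pool oligos alone, 48.1% of 1390 were in the odd list and 94.7% in the even list. In 4T1-only peaks the same shares were 97.9% and 28.7% for odd-pool matches, and 32.7% and 81.6% for even-pool matches.

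Runs of TGG were most frequent in NDL-only peaks. These are simple repeats of at least 4 TGG units on either strand, and oligo 4 itself contains TGGTGG. They lay in 8.41% of NDL-only peaks (1503 of 17878, interval 8.01 to 8.82), 5.02% of shared 4T1 peaks (4.83 to 5.21) and 2.45% of 4T1-only peaks (2.27 to 2.65). In the 4T1 list, peaks with a run were shared more often than peaks without (79.9% against 65.4%), and in the NDL list less often (62.8% against 74.1%). The median score of peaks with a run was 51.8 in both lists. In the last 2 deciles of the NDL list, 6.85% of NDL-only peaks and 1.67% of shared peaks had a run, while in the first 2 deciles the shares were 9.92% and 8.58%, with overlapping intervals. Few of the NDL-only peaks with a run, 3.33%, also had an oligo match of 12 bases. Mean GC content was 44.2% in shared 4T1 peaks, 44.0% in 4T1-only and 45.3% in NDL-only peaks, against 41.9% of the autosomal sequence, and repeat-masked sequence made up 26.5%, 26.7% and 27.3%, against 33.5%.

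Annotation classes differed little. Of the shared 4T1 peaks, 46.1% were intergenic, 42.5% intronic, 3.71% at promoters (interval 3.55 to 3.88), 3.79% exonic and 3.93% at transcription termination sites. Promoters held 4.06% (3.82 to 4.31) of 4T1-only and 4.39% (4.10 to 4.70) of NDL-only peaks, and intergenic sequence 46.1% and 44.1%. In the NDL list, promoter peaks were shared in 69.8% of cases (68.0 to 71.6) and intergenic peaks in 74.2% (73.8 to 74.7). In the 4T1 list these shares were 63.9% (62.1 to 65.7) and 66.0% (65.4 to 66.4). Peaks at promoters were found at 2750 genes in 4T1 cells and 2492 in NDL cells, and 1711 genes had one in both, 62.2% of the 4T1 genes and 68.7% of the NDL genes.

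The highest-scoring promoter peaks that were shared lay at Gm7281, Thap6, Gm36447, 1810019D21Rik and Manf, a secreted factor of the endoplasmic reticulum stress response, with 4T1 ranks of 6, 52, 92, 106 and 154. Those found in 4T1 cells alone lay at Cd200r2, a CD200 receptor family member (rank 195), and at Ccdc34os, Gm8707, Cilp2 and Piwil4, with ranks of 1010 to 1538. In NDL cells alone they lay at Cdc26 (rank 27), Fbxl2, an F-box protein (249), Kmt2b, a histone H3 lysine 4 methyltransferase (468), Gm44901 (676) and Gm5266 (771). The Kmt2b peak, from 30585285 to 30586414 on chromosome 7, was also in the odd and the even list of 4T1 cells, although it was absent from the 4T1 total-pool list. The other 4 NDL-only promoter peaks were in neither list.

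Peaks were assigned to the gene of the nearest promoter, and 99.8% of the peaks in each list could be given a gene of GENCODE vM21. A shared peak of either list was nearest to 22454 genes. A further 3822 genes had 4T1-only peaks and no other, 2605 had NDL-only peaks and no other, and 1144 had both kinds but none shared. Expression was read for the genes of each class present in the RNA table of 4T1 control cells, as at least 1 CPM in both libraries. It was found for 5853 of 18471 genes with a shared peak (31.7%, interval 31.0 to 32.4), 926 of 3094 with 4T1-only peaks and no other (29.9%, 28.3 to 31.6) and 730 of 2183 with NDL-only peaks and no other (33.4%, 31.5 to 35.4). Of autosomal genes with no peak it was found for 3590 of 15660 (22.9%). Median gene length moved with these classes, at 6.80, 4.31, 4.83 and 2.21 kb, and its part in the shares was not tested.

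Some genes had several peaks in 1 list and none in the other. In 4T1 cells Akap7, a protein kinase A anchoring protein, and Vwa2, an extracellular matrix protein, had 6 peaks each, as did Gm25214. Akap7 had 42.1 and 38.8 CPM and Vwa2 12.7 and 4.91 CPM in the 4T1 control libraries. Gm22958 and Gm9655 had 5 peaks each. In NDL cells Gm28750 and Gm43973 had 5 peaks, and Egfl7, a secreted vascular factor, Gfod1 and Gm23403 had 4. In all, 3850 genes were nearest to peaks of the 4T1 list alone and 2632 to peaks of the NDL list alone.

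As a background for the gene lists, 53.5% of 51229 autosomal genes were nearest to a 4T1 peak, 51.1% to an NDL peak and 43.8% to a shared 4T1 peak, while 7.52% had 4T1 peaks alone and 5.14% NDL peaks alone. No peak of either list was nearest to 41.4% of these genes. Gene length differed between the lists, with a median span of 57.9 kb for the focal adhesion genes, 62.3 kb for the mammary tumor drivers and 7.04 kb for the mammary lineage genes, against 3.70 kb for all autosomal genes, and its part in the counts was not tested.

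Focal adhesion genes mostly had peaks in both cell types. Of 20 genes, 17 had a peak in 4T1 cells, 17 in NDL cells and 16 a shared one, and of their 97 4T1 peaks 60.8% were shared, against 66.0% of all. The paralog Tns3 had 12 4T1 and 9 NDL peaks, of which 5 were shared, and Tln2, which encodes a talin, had 19 and 15 with 9 shared. Itgb1, the integrin beta 1 chain, had 1 peak in 4T1 cells (rank 44737) and 0 in NDL cells, and Tns2 0 and 1 (rank 23735). Tln1 and Zyx had none by nearest promoter.

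Of 24 mammary tumor drivers, 18 had a peak in 4T1 cells, 16 in NDL cells and 14 a shared one. Peaks in 4T1 cells alone were found for 4 genes, in NDL cells alone for 2 and in neither for 4, and of their 87 4T1 peaks 60.9% were shared, against 66.0% of all. By nearest promoter, Erbb2, the receptor whose activated form defines the Neu model, had 1 4T1 peak (rank 2041) and 0 NDL peaks. Myc (rank 52828) also had a 4T1 peak alone. Both of these peaks lay outside the gene. Erbb3 was counted among the genes with NDL peaks alone, but 1 4T1 and 2 NDL peaks lay inside it, and the 4T1 peak was shared. Esr1, the estrogen receptor, had 17 4T1 and 10 NDL peaks with 9 shared, and Pgr, the progesterone receptor, 2 and 2, both shared, ranking 81 in 4T1 and 98 in NDL cells. Pgr RNA was at 0.0232 and 0 CPM in 4T1 control cells.

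Mammary lineage genes had a shared peak in 10 of 18 cases, and of their 50 4T1 peaks 60% were shared, against 66.0% of all. The basal keratin gene Krt5 had 1 shared peak at ranks 583 and 136, and Elf5, a luminal transcription factor, had its best peaks at ranks 179 and 56. Both genes were at or near 0 CPM in 4T1 control cells. Ets1 had its best peak at rank 23 in 4T1 and 1043 in NDL cells. For the genes that the study named besides Tns1, the best peak by nearest promoter was ranked in each list. Lonp2 ranked 16 and 37, Pvt1 30 and 370, Zhx2 34 and 626, Ggnbp2 1168 and 1087, Has2 15696 and 44258 and Immp2l 15752 and 13638. Inside the gene, Immp2l held 20 4T1 and 15 NDL peaks and Zhx2 11 and 8, against 3 and 2 by nearest promoter for each. None of the other genes held more peaks inside than by nearest promoter. Ilvbl had no NDL peak. The study took its candidate targets from the overlap of 4T1 peaks with genes changed in RNA-seq of MaTAR25 knockout cells. The genes are therefore not independent of the 4T1 peaks.

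Of the 3 control genes, 2 had no peak in either list. Ppib and Gapdh were nearest to 0 peaks in both lists, and Actb to 1 shared peak at ranks 61331 and 32860. Of all autosomal genes 41.4% had no peak either, so a lack of peaks does not set these genes apart. The median span of the control genes was 4.75 kb, against 3.70 kb for all autosomal genes. Ppib RNA was the target of the control pulldown over which peaks were called, so its lack of peaks was largely set in advance. Of the other long non-coding RNA genes examined, Malat1 had 2 4T1 peaks and 1 NDL peak, 1 of them shared, and Neat1 had 0 in both. The 4T1 control RNA had the epithelial markers Epcam (486 and 510 CPM), Krt8 and Krt18 together with Vim and Fn1, while the leukocyte markers Ptprc and Cd3e and the endothelial markers Pecam1 and Cdh5 were at 0 to 0.225 CPM. The macrophage marker Cd68 had 4.43 and 3.34 CPM, and the mesenchymal transcription factor Zeb1 0.371 and 0.321 CPM.

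Along the genome the lists were spread alike. In 5 Mb bins the share of each list's autosomal peaks was compared, and among 497 bins with at least 20 peaks none reached a 2-fold difference in either direction (0% of bins higher in NDL cells and 0% higher in 4T1 cells). The ratio of the NDL share to the 4T1 share ran from 0.542 to 1.48, with 90% of bins between 0.834 and 1.23. Its 95% interval for counting error, from a normal approximation on the log ratio, did not include a ratio of 1 in 21 of the bins (4.23%). The interval treats the lists as independent although most of their peaks were shared. This count of bins can therefore not be set against a chance level. At 1.25-fold, a limit chosen after the data had been seen, 15 bins (3.02%) were higher in NDL cells and 14 (2.82%) in 4T1 cells. The odd-pool list of the same 4T1 cells, set against the 4T1 total-pool list, spread as widely: without chromosomes 2 and 3 its ratio had 15 bins above and 13 below these limits, and the even list 2 and 3.

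**Figure D5:**
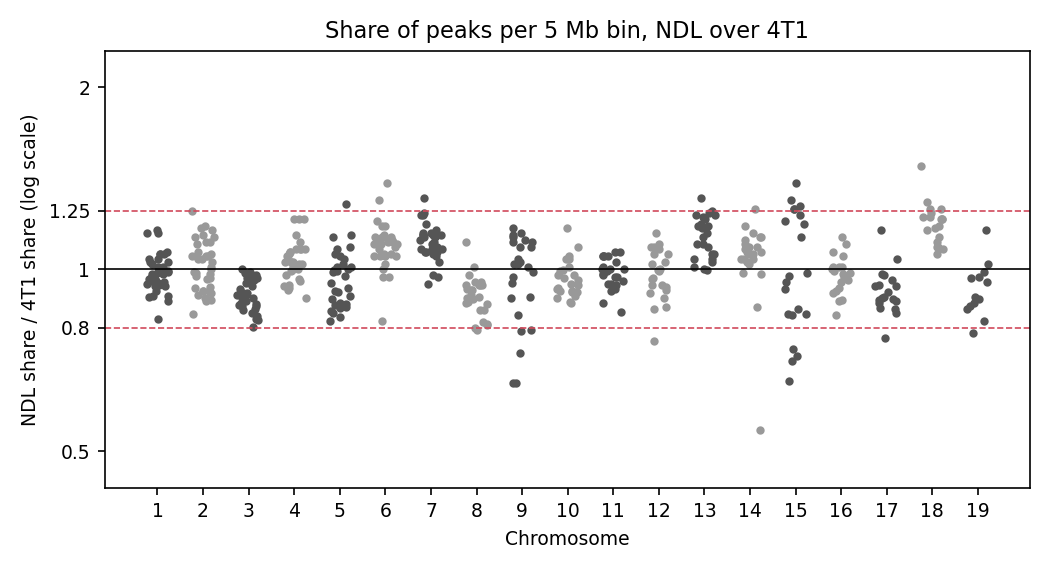
Ratio of the NDL share to the 4T1 share of autosomal peaks (y axis, log scale) in 497 bins of 5 Mb, 1 point per bin, by chromosome (x axis; horizontal scatter is arbitrary). Dashed lines mark 1.25-fold in either direction, with 15 bins above and 14 below, and no bin reaches 2-fold.

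The 14 bins below the limit lay on chromosomes 8, 9, 12, 14, 15, 17 and 19, with 5 on chromosome 9 and 4 on chromosome 15. The lowest was 40 to 45 Mb of chromosome 14, with 115 4T1 and 56 NDL peaks and a ratio of 0.542. It was followed by 10 to 15 Mb (0.648) and 35 to 40 Mb (0.649) of chromosome 9, and by 65 to 70 Mb (0.653) and 55 to 60 Mb (0.705) of chromosome 15. In these 14 bins the odd list had a ratio to the 4T1 total list of 0.806 to 1.46 (median 1.03) and the even list 0.848 to 1.10 (median 0.989). The bins were picked by the NDL ratio, and the 3 ratios share the 4T1 total list, so these values stand side by side as a description. On chromosome 14 the odd and even lists themselves differed, with 1.46 and 0.848.

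The highest bins were 90 to 95 Mb of chromosome 18 (ratio 1.48, from 9 4T1 and 12 NDL peaks), 130 to 135 Mb of chromosome 6 (1.39), 75 to 80 Mb of chromosome 15 (1.39), 60 to 65 Mb of chromosome 7 (1.31) and 0 to 5 Mb of chromosome 13 (1.31). The interval included 1 for the bins of chromosome 18 (0.626 to 3.52), chromosome 7 (0.999 to 1.72) and chromosome 13 (0.858 to 1.99), but not for those of chromosomes 6 and 15. Chromosomes 15 and 18 held 5 and 4 of the 15 bins above the limit. In these 15 bins the odd list had a ratio to the 4T1 total list of 0.557 to 1.30 (median 1.08). The even list had 0.654 to 1.21 (median 0.958). These bins too were picked by the NDL ratio, so the values are a description.

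Chromosome 15 held bins on both sides of the limits. From 0 to 30 Mb its ratio was 0.974. From 30 to 70 Mb it held 1403 4T1 and 1021 NDL peaks, a ratio of 0.810, and from 70 to 105 Mb it held 1270 and 1342, a ratio of 1.18. Bins within these stretches went the other way, with 1.27 at 45 to 50 Mb and 0.861 at 70 to 75 Mb. From 30 to 70 Mb and from 70 to 105 Mb the odd list had ratios of 1.00 and 0.968 and the even list 1.04 and 0.906. From 5 to 40 Mb of chromosome 9 the ratio was 0.791, beside 1.01 for the odd and 0.964 for the even list. These stretches were chosen after their values were seen. By chromosome, the shared part ran from 60.6% (chromosome 19) to 72.9% (chromosome 18) of 4T1 peaks and from 69.4% (chromosome 18) to 77.1% (chromosome 16) of NDL peaks. Over whole autosomes the NDL ratio ran from 0.902 on chromosome 3 to 1.17 on chromosome 18. Outside chromosomes 2 and 3, that of the odd list ran from 0.947 to 1.05 and that of the even list from 0.948 to 1.05.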

How the data were processed

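The authors mapped paired-end ChIRP-seq reads to GRCm38 (mm10) with Bowtie2, called differential peaks with HOMER over the replicates at 50-fold or more over the control pulldown, and used GENCODE vM16 for annotation. The deposited peak score is theirs. RNA-seq values were deposited as raw counts per gene (STAR, HTSeq). Control libraries had 43155437 and 31178780 gene counts. Rows that name no gene, 34.3% and 33.9% of the counts, were left out, and KO libraries were not used.

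The comparison of peaks ran in pandas 2.3.3, numpy 2.4.6 and numba 0.67.0, with rank correlations from scipy 1.17.1 (Python 3.11.15). Oligo sequences came from the study's supplement, matches were exact and of at least 12 bases, and their search was tested on simulated sequence. Bins held peak centres. Shares have 95% Wilson intervals. Reads were not used. Alternatives were other overlaps, score limits, bins, annotation, match lengths and odd and even lists.

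Named were the 10 top sites and the 5 top promoter peaks of each class, 5 genes with most peaks in 1 list alone, the 5 highest and lowest bins and genes of fixed lists. Members, lists and alternatives were chosen with earlier results of these data known.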

Additional observations from a re-analysis of the deposited data

Results flagged for a closer look

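The X chromosome lies outside the autosomal comparison and differed from it. The 4T1 list held 2021 peaks on X, 2.63% of its peaks, and the NDL list held 3170, 4.51% of its peaks, so that the NDL share was 1.71 times the 4T1 share. Of the 4T1 peaks on X, 83.4% (interval 81.7 to 84.9) overlapped an NDL peak, and of the NDL peaks on X, 53.1% (51.4 to 54.8) overlapped a 4T1 peak. Peak density on X was 12.4 per Mb in 4T1 and 19.4 per Mb in NDL cells. The odd and even lists of 4T1 cells had 2.74% and 2.70% of their peaks on X. The cause was not tested.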

How the results depend on the processing

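Shares of shared 4T1 and NDL peaks stayed within their counting intervals with an overlap of at least 50% of the shorter peak and within 500 bp. They were 67.8% and 81.1% with scores of at least 100 in both lists, 74.7% and 74.7% for the 10000 highest-scoring peaks of each, 66.4% and 72.5% with all chromosomes, and, added after seeing the data, 83.2% and 91.3% for peaks scoring at least 100 against all peaks of the other list. Bins at least 2-fold higher in 4T1 cells went from 0 to 1 when bins were moved by 2.5 Mb and to 3 with scores of at least 100 (5 Mb bins of chromosomes 9, 11 and 14). At 1.25-fold, added after seeing the data, 10 Mb bins gave 1 bin higher in NDL and 4 in 4T1 cells, and scores of at least 100 gave 92 and 75. Promoter shares of shared 4T1, 4T1-only and NDL-only peaks were 4.32%, 5.76% and 5.28% with scores of at least 100, and with GENCODE vM21 3.89% for shared and 4.70% for NDL-only peaks. Oligo match shares were, in the same order, 65.6%, 59.3% and 54.9% at 10 bases, 4.91%, 1.86% and 1.12% at 14 bases and 25.2%, 17.5% and 13.4% in the central 500 bp. Recovery in the odd or even list was 90.4%, 74.4% and 35.9% without chromosomes 2 and 3, 40.0%, 33.4% and 16% in the odd list alone and 20.3%, 9.53% and 1.42% in both. Shares of genes at 5 CPM were 27.9%, 26.0% and 28.4% for shared, 4T1-only and NDL-only peaks, and without each control replicate in turn they were 32.1 to 32.3%, 30.3 to 30.6% and 33.8 to 33.9% at 1 CPM. Taking the nearest start site of GENCODE vM21 kept these gene shares within their intervals. The order of the classes for oligo matches and for recovery was the same under each of these settings. For promoters the order of 4T1-only and NDL-only peaks turned with scores of at least 100. The cause was not tested. No paired analysis was possible because each list gives 1 set of peaks over the replicates of its cell type.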
